A study of Mus musculus with 17 samples.

Results

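Beta cells of mouse pups at postnatal day 21 (P21) were set against beta cells at postnatal day 12 (P12), the span over which pups pass from suckling to weaning. A cell counted as a beta cell where its Ins2, a mouse insulin gene, was at least 3000 per 100000 UMIs and at least 3 times each of Gcg, Sst and Ppy, the hormones of alpha, delta and PP cells. Its Prss2, a trypsinogen of acinar cells, also had to be under 1500 on the same scale. UMIs are unique molecular identifiers, which count captured RNA molecules, and on this scale each cell's total leaves out 8 very abundant hormone genes. The rule kept 101 of 243 cells in the 1 P21 library, and 62 of 78 and 65 of 74 cells in the 2 P12 libraries. These 228 beta cells stand among 910 beta cells and 2999 cells in the 17 libraries of the series, which follows pancreatic endocrine cells after streptozotocin and, in untreated pups, after birth.

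Per the labels, all mice used here were of the strain Ngn3-Cre; Rosa-RFP, in which Cre driven by the endocrine progenitor gene Ngn3 switches on a red fluorescent protein, and RFP+ cells of the pancreas were sorted and picked singly. The P21 library and the 2 P12 libraries came from untreated pups whose sex the labels do not give. Background values came from 1 library of untreated pups at postnatal day 3 (P3) and 3 libraries of adult male controls, which had received citrate buffer in place of streptozotocin at the age of 2 months. The labels do not say how many pups went into a library, or whether replicates came from separate animals, so p-values measure the spread between libraries, which may be technical. With 1 library at P21, the age and that library cannot be told apart.

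Mouse pups live on milk, which is rich in fat, until solid food rich in carbohydrate replaces it around weaning. Beta cells of newborn rodents release insulin at low glucose, and the glucose threshold of secretion is known to settle over the weeks after birth. Ucn3, a peptide hormone stored with insulin, is a usual marker of mature mouse beta cells, whereas Npy, a neuropeptide, marks immature ones.

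Summed per library, the beta cells held 6771987 UMIs at P21 and 3554956 and 3708839 UMIs at P12. The median beta cell held 58648 UMIs and 4698 genes at P21, and 58304 and 55441 UMIs with 4895 and 4975 genes in the P12 libraries. Of the cells left out, 52 at P21 failed the hormone ratio alone, against 1 and 2 at P12, and the P21 library held 64 cells that passed the same rule for Gcg in place of Ins2, against 5 in each P12 library. The lowest Ins2 of a beta cell was 3327 at P21 and 7436 and 5800 at P12, and 12 beta cells at P21 against 0 and 1 at P12 lay between 3000 and 6000. The beta-cell markers Ins1, Iapp, Pdx1, Nkx6-1, Slc2a2, G6pc2, Slc30a8 and Ucn3 were detected in all 7 untreated libraries. Mafa, a transcription factor of mature beta cells, had 0 UMIs in every library, so its level is not known from these counts.

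Both P12 libraries stood apart from all other libraries at some genes. In beta cells, 8 genes lay at least 2-fold above and 17 at least 2-fold below the 5 other untreated libraries in both P12 libraries, and 5 and 10 of these were among the genes called below. Every library on the higher side had to reach 20 counts per 1000000 UMIs, so genes under that floor in any such library were not counted. Over all cells of a library, in counts per 1000000 UMIs (CPM) without scaling, Rps3a3, which shares its sequence with the ribosomal gene Rps3a1, had 342 and 296 unscaled CPM in the P12 libraries and at most 1.35 in the 15 others. Tmsb15b1, a thymosin gene with near-identical copies, had 0.219 and 0.237 unscaled CPM in the P12 libraries and at least 12.02 in the others. The cause was not tested, and the counts of called genes and of age patterns are therefore also given without these 25 genes.

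The summed counts of 14130 genes were tested with edgeR's quasi-likelihood test over the 7 untreated libraries, and levels are given as CPM of a library's beta-cell total after TMM scaling. At an adjusted p under 0.05, 48 genes (0.34% of those tested) rose and 18 (0.127%) fell at P21 relative to P12. The unadjusted p was under 0.05 for 1367 genes. Gcg and Sst, which chose the cells, were among the genes that rose, and 46 rose without them. Outside the genes at which P12 stood apart, 38 rose and 13 fell. As a description, 195 genes (1.38%) had at least 20 CPM at P21 and at least 2 times the CPM of each P12 library, and 126 genes (0.892%) with at least 20 CPM in each P12 library lay at least 2-fold below both at P21. At the same size, P12 replicate 1 exceeded P12 replicate 2 at 118 genes and replicate 2 exceeded replicate 1 at 236 genes. The median log2 fold change of all tested genes was 0.00.

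The calls rest on few libraries. Without P12 replicate 1, 18 genes rose and 6 fell; without P12 replicate 2, 20 rose and 8 fell. Called in both cases were 13 of the 48 genes that rose, among them Rgs2, Ly6e and C8b, and 3 of the 18 that fell, Rps3a3, Gm10800 and Gm14085. The 3 that fell are all among the genes at which P12 stood apart, as are Reg2, Pnlip, Try4, Tmsb15b1 and Ly6e of the 13. The rest of the 13 were Rgs2, C8b, Rab6b, Reg3b, Pla2g1b, Ghrl, Serpina1a and Sst. Rab6b, Reg3b and Pla2g1b also lay far below every other untreated library in both P12 libraries. They were not counted as genes at which P12 stood apart because their P3 levels, 9.60, 19.3 and 13.8 CPM, were under 20 CPM. Of the others, Sst chose the cells, and 1 cell at P21 held most UMIs of Ghrl and Serpina1a. The labels carry a batch number that equals the replicate number and do not say whether it is shared between groups. P21, P3, P12 replicate 1 and adult control 1 carry the number 1, so P21 is set against P12 of the same number in the fit without P12 replicate 2. With the number as a block, which leaves 1 residual degree of freedom, 414 genes rose and 371 fell, among them all 48 and all 18. DESeq2, another count test, called 75 higher and 53 lower, with 43 and 17 of the edgeR calls among them, and limma-trend, with cells weighted equally in place of by their UMIs, called 2 higher and 1 lower.

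**Figure D1:**
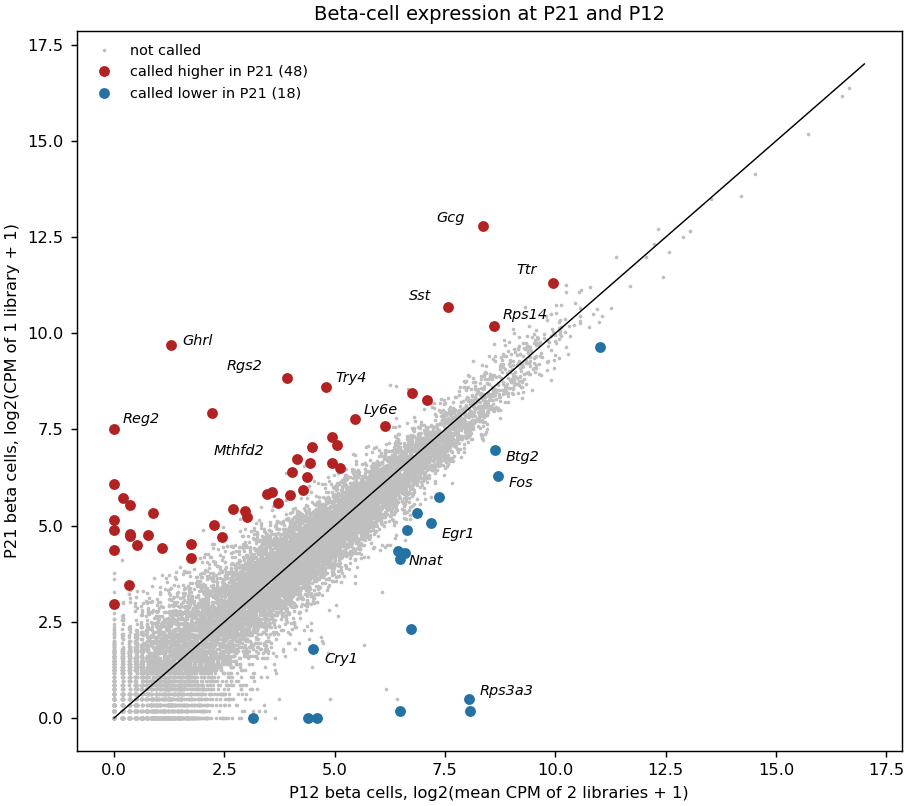
Each point is a tested gene, with the mean level of the 2 P12 libraries on the horizontal axis and the level of the P21 library on the vertical axis, both as log2(CPM + 1) of summed beta cells. Red points are the 48 genes called higher and blue points the 18 called lower at P21; most genes lie along the diagonal.

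Set beside P3 and the adult controls, the 48 genes that rose fell into 4 patterns, defined by the side of the midpoint between P12 and P21 on which the P3 library and the adult median lay. For 16 genes P3 lay with P12 and the adult with P21, as for a step between day 12 and day 21 that lasts. The 16 include Pdyn and Tmem59l, of which a single cell held 95.8% and 51.4% of the P21 UMIs. For 24 genes both P3 and the adult lay with P21, so that P12 was the low age, and 8 of these are among the genes at which both P12 libraries stood apart. For 5 genes both lay with P12, and for 3 genes only P3 lay with P21. The 3 are Gcg and Sst, which chose the cells, and Ghrl, and the 5 include Serpina1a and Serpina1b. A single cell held most of the P21 UMIs of Ghrl, Serpina1a and Serpina1b. Of the 18 genes that fell, 4 had P3 with P12 and the adult with P21 (Cry1, Nop58, Klf10 and Nnat), 5 had P12 as the high age, 6 had P21 as the low age, and 3 had P3 with P21 and the adult with P12. Outside the genes at which P12 stood apart, these 4 patterns held 15, 16, 5 and 2 of the genes that rose and, in the order given for them, 4, 2, 6 and 1 of the genes that fell. Whether P12 is low or high by age or by its libraries cannot be told apart. Over all tested genes the same 4 patterns held 25.9%, 26.2%, 25.7% and 22.2%. These classes were drawn after the data had been seen and carry no test.

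Rgs2, a regulator of G-protein signalling that shortens signals through Gq-coupled receptors, had the smallest adjusted p of the 16 genes that rose toward the adult. It had 459.5 CPM in P21 against 8.49 and 19.99 CPM in P12, from 3339 UMIs at P21 and 29 and 76 UMIs at P12. The P3 library had 7.20 CPM, and the 3 adult controls had 1811, 1471 and 938 CPM. The P21 library thus lay far above every younger library and below every adult one. The change was a log2 fold change of 4.9998 ± 0.40 with an adjusted p of 1.81e-06, which was 0.000256 and 2.39e-05 without P12 replicate 1 and without P12 replicate 2 and ran from 4.43e-97 to 0.131 over all alternatives. The highest was that of limma-trend with cells weighted equally, the one alternative in which Rgs2 was not called. After each cell was thinned to 30317 UMIs, 95.3% of P21 beta cells had an Rgs2 UMI, against 13.8% and 18.6% in P12, with a median of 11.5 UMIs at P21 and 0 in both P12 libraries. In cells passing the rule for Gcg, 44 of 64 had an Rgs2 UMI at P21, against 3 of 5 and 0 of 5 at P12, but 40 of the 64 also had a UMI of Ucn3, so a UMI there is not read as expression. Those cells had medians of 48924 UMIs at P21 and 38724 and 56070.0 UMIs at P12.
The promoter of Rgs2 is shown because the level of this gene sets P21 apart from both P12 libraries. It spans 250 bases before to 50 after the gene's start in RefSeq's GRCm38.p6 annotation, at chr1:144004100-144004399 on the minus strand, printed 5′ to 3′ with the core of the cAMP response element, TGACG on either strand, in capitals.
Rgs2: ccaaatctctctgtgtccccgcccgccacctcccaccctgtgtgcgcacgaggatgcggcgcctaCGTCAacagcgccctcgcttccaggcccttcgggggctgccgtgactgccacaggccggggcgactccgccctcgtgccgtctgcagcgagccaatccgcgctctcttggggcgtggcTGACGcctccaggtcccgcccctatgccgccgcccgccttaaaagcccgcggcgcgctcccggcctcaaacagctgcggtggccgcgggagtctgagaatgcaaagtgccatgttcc
The core occurred 2 times in this window, once as printed and once as its reverse complement. It was present in 8 of 35 promoters of genes that rose, 22.9%, and in 20.8% of the 32851 promoters of the same length, so its presence in Rgs2 is a description of the sequence and no sign of a site in use.

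Other genes of this pattern included Mthfd2, Atf5 and Cbs. Mthfd2, a mitochondrial enzyme of folate metabolism, had 106 CPM in P21 against 19.3 and 13.9 CPM in P12, with a log2 fold change of 2.68 ± 0.45 and an adjusted p of 0.00539. The P3 library had 27.3 CPM and the adults had 74.9, 60.4 and 169.7 CPM, so that P21 lay within the adult range. Atf5, a transcription factor of the amino acid and mitochondrial stress response, had 83.4 CPM in P21 against 12.9 and 17.9 CPM in P12, with a log2 fold change of 2.43 ± 0.40 and an adjusted p of 0.0043. Cbs, the enzyme that makes cystathionine from homocysteine, had 47.3 CPM in P21 against 12.01 and 12.4 CPM in P12, with a log2 fold change of 1.96 ± 0.38 and an adjusted p of 0.0241. At P21 both thus lay above each younger library, for at P3 they had 18.2 and 5.26 CPM. Adult controls had 106, 54.7 and 112 CPM of Atf5 and 57.03, 45.2 and 60.9 CPM of Cbs. None of the 3 stayed called when P12 replicate 1 or replicate 2 was left out, with adjusted p of 0.0847 and 0.154 for Mthfd2, 0.139 and 0.0512 for Atf5 and 0.217 and 0.194 for Cbs.

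Further genes of this pattern had varied roles. Serpina10, an inhibitor of coagulation proteases, had 27.4 CPM at P3, 18.5 and 21.05 CPM at P12, 75.8 CPM at P21 and 128, 90.98 and 132 CPM in adults, with a log2 fold change of 1.94 ± 0.33 and an adjusted p of 0.00521. C8b, a complement component, had 20.2 CPM in P21 against 1.17 and 1.05 CPM in P12, with a log2 fold change of 4.17 ± 0.59 and an adjusted p of 0.0012, which was 0.0383 and 0.0432 without P12 replicate 1 and without P12 replicate 2. Btg1, an antiproliferative protein, had 345 CPM in P21 against 99.3 and 115 CPM in P12, with a log2 fold change of 1.69 ± 0.28 and an adjusted p of 0.00526. Adults had 26.6, 31.1 and 26.8 CPM of C8b and 187, 286 and 252 CPM of Btg1, against 2.22 and 79.7 CPM at P3. Adh1, an alcohol dehydrogenase that also oxidises retinol and the 1 called gene of the beta-cell maturity list, had 193 CPM in P21 against 85.5 and 54.2 CPM in P12, with a log2 fold change of 1.47 ± 0.30 and an adjusted p of 0.0283. Its adult levels were 144, 146 and 135 CPM, all under P21, and its P3 level was 46.3 CPM. With P12 replicate 1 or replicate 2 left out, the adjusted p was 0.125 and 0.0831 for Serpina10, 0.138 and 0.0774 for Btg1 and 0.0543 and 0.312 for Adh1. The genes Rgs2, Atf5, Cbs, Serpina10, C8b and Btg1, and Ly6e and Wnt4 in the next lines, lie outside the rule by which genes were named and were chosen after their values were seen.

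Among genes with P12 as the low age, Ly6e, a small surface protein anchored by lipid, had 217 CPM in P21 against 46.3 and 39.2 CPM in P12, with a log2 fold change of 2.34 ± 0.30 and an adjusted p of 0.000349. The P3 library had 106 CPM and the adults 161, 145 and 225 CPM, so each library at another age exceeded both P12 libraries by at least 2-fold, and Ly6e is 1 of the genes at which P12 stood apart. In thinned cells, 95.3% at P21 had a Ly6e UMI, against 43.1% and 49.2% at P12. Wnt4, a secreted Wnt ligand of islet cells, had 66.7 CPM at P3, 33.98 and 29.99 CPM at P12, 136 CPM at P21 and 92.2, 139.7 and 86.1 CPM in adults, with a log2 fold change of 2.09 ± 0.32 and an adjusted p of 0.0029. Gpx3, a secreted glutathione peroxidase, had 438 CPM at P3, 133 and 138 CPM at P12 and 305 CPM at P21, with a log2 fold change of 1.17 ± 0.26 and an adjusted p of 0.0492. Gpx3 was the 1 called gene of 27 in the oxidative stress list, whose median log2 fold change was -0.06. Tmsb15b1 had 34.7 CPM at P21 and 0 UMIs in both P12 libraries, at least 90.1-fold higher against a floor of 3 UMIs over the P12 group. Rab6b, a Rab protein of Golgi transport, had 25.3 CPM at P21 from 1 UMI in each P12 library, a ratio of 98.7 with a counting interval from 26.9 to 821. Tmsb15b1 and Rab6b belong to the genes at which P12 stood apart in all cells. Ly6e stayed called when P12 replicate 1 or replicate 2 was left out (0.0161 and 0.0235), whereas Wnt4 (0.059 and 0.0895) and Gpx3 (0.325 and 0.257) did not.

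Some genes that rose were highest at P21. Lars2, the mitochondrial leucyl-tRNA synthetase, had 31.2 CPM at P3, 16.99 and 25.8 CPM at P12, 129.8 CPM at P21 and 30.9, 20.2 and 31.7 CPM in adults. It rose against P12 with a log2 fold change of 2.60 ± 0.38 and an adjusted p of 0.00163 and was higher than in adult controls by 2.25 on the log2 scale, with an adjusted p of 0.0044. Lbp, the lipopolysaccharide-binding protein, had 26.7 CPM at P21 from 194 UMIs, against 1 UMI in each P12 library, a ratio of 104 with a counting interval from 28.4 to 865. It had 3.69 CPM at P3 and 0.471, 0.543 and 0 CPM in adults, and 37.2% of thinned P21 beta cells held it. The P21 library was the highest of all 7 untreated libraries at both genes. Lars2 lies outside the rule by which genes were named and was chosen after its values were seen. With P12 replicate 1 or replicate 2 left out, the adjusted p was 0.072 and 0.0197 for Lars2 and 0.0909 and 0.0934 for Lbp.

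**Figure D2:**
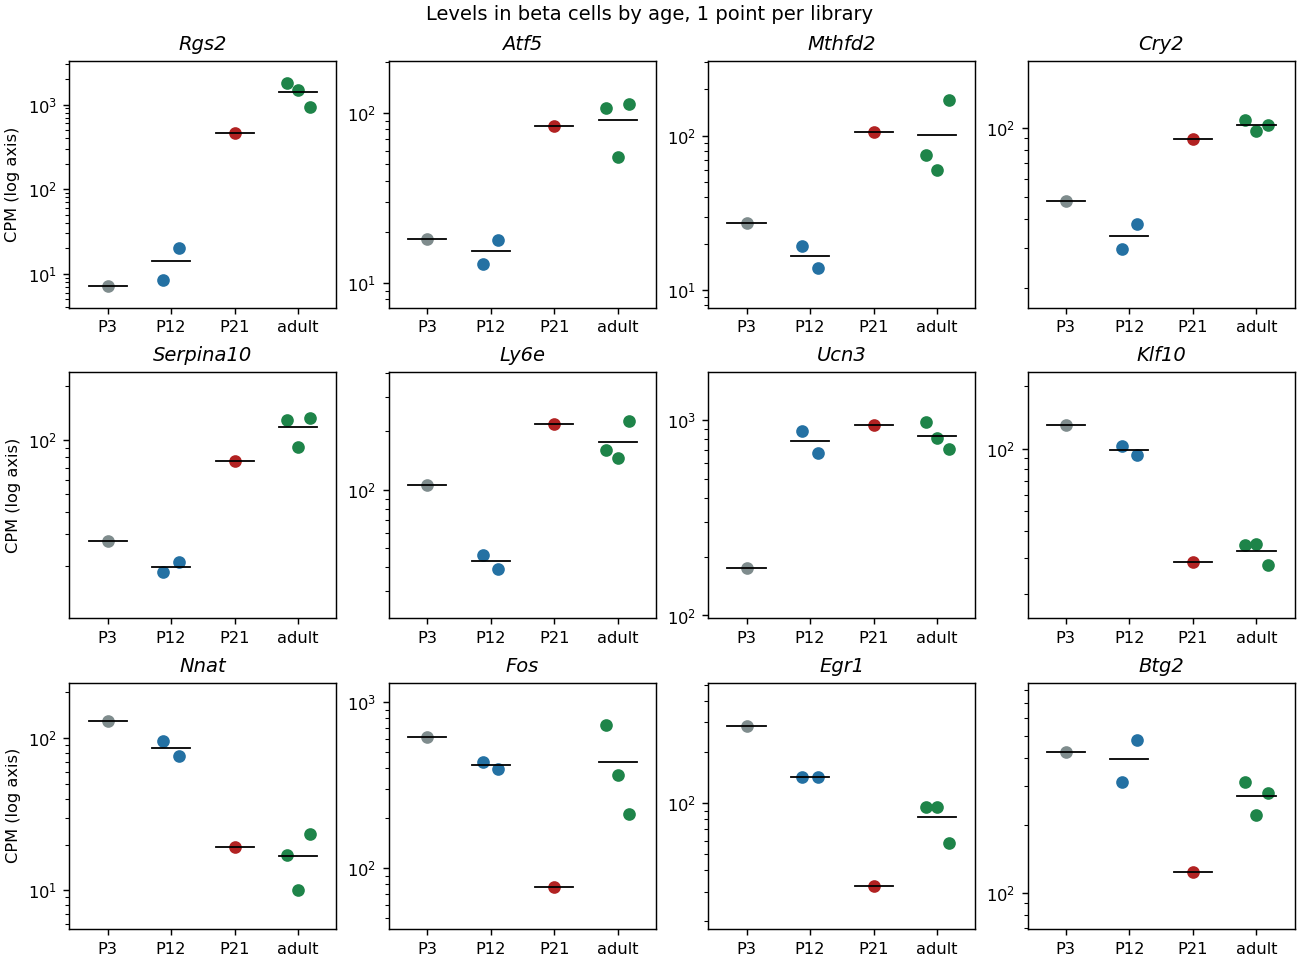
Levels of 12 genes in the summed beta cells of each untreated library at P3, P12, P21 and in adult controls, in CPM on log axes. Each point is a library and each bar the mean of its age; Rgs2 has 459.5 CPM at P21 and at most 19.99 CPM in the P12 libraries, whereas Ucn3 lies near its adult level at P12 already, and Fos, Egr1 and Btg2 are lowest at P21.

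Few genes of mature beta cells passed the test between these ages. Of 20 tested genes of the maturity list, 1 rose (Adh1) and 0 fell, with 13 above 0 and a median log2 fold change of 0.13; 6 were higher and 1 lower at an unadjusted p under 0.05, against 742 higher and 625 lower over all 14130 genes, and DESeq2 called 3 higher. Ucn3 had 936 CPM in P21 against 875 and 679.5 CPM in P12, with a log2 fold change of 0.27 ± 0.28 and an adjusted p of 0.814, a difference no larger than its error. The P3 library had 174 CPM of Ucn3, below every P12 library, and the adults had 977, 803 and 712 CPM. Slc2a2, the glucose transporter of mouse beta cells, had 509 CPM in P21 against 498 and 499 CPM in P12, with a log2 fold change of 0.03 ± 0.27. Syt4, a synaptotagmin that is known to lower the calcium sensitivity of secretion in maturing mouse beta cells, had 32.5 CPM at P3, 98.4 and 77.9 CPM at P12, 101 CPM at P21 and 117, 182 and 229.8 CPM in adults, with a log2 fold change of 0.20 ± 0.34.

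Further members of that list were higher at P21 without passing the test. Prlr, the prolactin receptor, had 195 CPM at P3, 342 and 221 CPM at P12, 625 CPM at P21 and 906, 1291 and 760.2 CPM in adults, so that its libraries stood in the order of age with no overlap. The change from P12 had a log2 fold change of 1.15 ± 0.32 and an adjusted p of 0.162. Ero1lb, the oxidase of insulin folding in the endoplasmic reticulum, had 326 CPM at P3, 688 and 657 CPM at P12, 1175 CPM at P21 and 1496, 1677 and 1545 CPM in adults, the same order. Its log2 fold change was 0.80 ± 0.25 with an adjusted p of 0.254. Both were chosen after their values were seen.

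Of 21 tested genes of immature beta cells and progenitors, 0 rose and 1 fell, with 16 below 0 and a median log2 fold change of -0.59; 2 were higher and 6 lower unadjusted, and DESeq2 called 3 lower. The gene that fell was Nnat, an imprinted gene whose protein aids insulin processing in mouse beta cells, with 19.4 CPM in P21 against 95.2 and 76.3 CPM in P12. Its P3 level was 129 CPM and its adult levels were 17.05, 10.05 and 23.6 CPM, so P21 lay in the adult range. Nnat had a log2 fold change of -2.14 ± 0.44 and an adjusted p of 0.0304, and 0.294 and 0.115 without P12 replicate 1 and without P12 replicate 2. Npy had 0.688 CPM in P21 against 127 and 13.2 CPM in P12, and its log2 fold change of -6.63 ± 1.67 had an adjusted p of 0.107, with the P12 libraries far apart from each other. Of 15 alternatives 8 called it lower, with adjusted p from 2.18e-28 to 0.749, highest without P12 replicate 1 and 0.0112 without each gene's highest cell, which held 46.7% of its UMIs in P12 replicate 1. Dlk1, an imprinted membrane protein, had 123 CPM at P3, 2.05 and 4.998 CPM at P12 and 2.48 CPM at P21, so P21 and P12 both lay far below P3.

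Islet transcription factors, granule genes and the glucose-sensing machinery held no called gene. Among 25 tested transcription factors of beta and endocrine cells, 0 passed edgeR's test, with 3 higher and 3 lower at an unadjusted p under 0.05, 0 calls by DESeq2, and a median log2 fold change of -0.19. Among 24 genes of the insulin granule and hormone processing, 0 passed, with 6 higher and 2 lower unadjusted, 3 higher and 1 lower by DESeq2, and a median of 0.12. Ins1, the other insulin gene, whose sequence is close to that of Ins2, had 73287 CPM in P21 against 95529.9 and 89849 CPM in P12, and Iapp, the amyloid peptide secreted with insulin, had 36787 CPM in P21 against 56267 and 52681 CPM in P12. Their log2 fold changes were -0.34 ± 0.22 and -0.57 ± 0.23, with adjusted p of 0.657 and 0.416. Among 25 genes of glucose sensing and secretion, 0 passed, with 2 higher and 2 lower unadjusted, 0 by DESeq2, and a median of -0.12. G6pc2, the glucose-6-phosphatase subunit of beta cells, had 2418 CPM in P21 against 3608 and 3030.3 CPM in P12. It was lower at P21 than in either P12 library, with a log2 fold change of -0.46 ± 0.28 and an adjusted p of 0.63.

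Genes that mature beta cells keep low, the disallowed genes, held no called gene. Of 20 tested, 0 passed edgeR's test, with 1 higher and 1 lower at an unadjusted p under 0.05 and 0 by DESeq2. Ldha, lactate dehydrogenase A, had 1.65 against 0 and 3.68 CPM at P21 and P12, and Slc16a1, the monocarboxylate transporter MCT1, had 0.551 against 0 and 0 CPM. These levels rest on 12 UMIs of Ldha at P21 and 0 and 14 at P12, and on 4 UMIs of Slc16a1 at P21 and 0 in both P12 libraries. At this depth no difference of these 2 genes between P21 and P12 was detectable.

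Targets of ATF4 and CHOP, which respond to shortage of amino acids and to stress of the endoplasmic reticulum, lay mostly higher at P21. Of 23 tested, 1 rose (Mthfd2) and 0 fell, 18 were above 0, and 18 were above both P12 libraries as were 36.9% of all tested genes. Of the 23, 5 were at least 2-fold higher and 1, Ppp1r15a, at least 2-fold lower. At an unadjusted p under 0.05, 9 were higher and 1 lower. The median log2 fold change was 1.26 beside 0.00 over all genes, and DESeq2 called 2 higher. Eif4ebp1, a brake on cap-dependent translation, had 43.9 CPM in P21 against 7.03 and 11.05 CPM in P12, and Phgdh, the first enzyme of serine synthesis, had 20.6 CPM in P21 against 4.69 and 7.89 CPM in P12. Vldlr, a lipoprotein receptor, had 67.9 CPM in P21 against 22.3 and 25.3 CPM in P12. None of these 3 passed the test, with adjusted p of 0.242, 0.333 and 0.0953, and they were chosen after their values were seen. Asns, asparagine synthetase, had 92.3 CPM in P21 against 83.2 and 84.97 CPM in P12, Atf4 itself had 252 CPM in P21 against 214 and 179 CPM in P12, and Ddit3, which encodes CHOP, had 17.8 CPM in P21 against 24.9 and 18.9 CPM in P12. Thus not all members lay higher, and Ddit3 lay below both P12 libraries. Of 28 genes of the unfolded protein response, 0 passed edgeR's test, with 2 higher and 3 lower unadjusted, 1 higher by DESeq2, and a median of -0.13. A C/EBP-ATF response element, searched as TGATGNAA on both strands, was present in 8 of 21 ATF4 target promoters, 38.1%, against 3.97% of all promoters. It was absent from the window of Mthfd2, the 1 called target, and present in 1 of 35 promoters of genes that rose, 2.86%, and in 0 of 10 of genes that fell.

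Some immediate early genes fell at P21. These genes are switched on within minutes by calcium, cAMP and growth factor signals and also by tissue dissociation. Of 25 tested, 3 fell (Fos, Egr1 and Btg2) and 0 rose, 6 were at least 2-fold lower and 2 at least 2-fold higher, with a median log2 fold change of -0.36; DESeq2 called 5 lower and 1 higher. Fos, a subunit of the AP-1 transcription factor, had 618 CPM at P3, 437 and 394 CPM at P12, 77.2 CPM at P21 and 729, 365 and 212 CPM in adults. The P21 library was the lowest of the 7, and the change from P12 had a log2 fold change of -2.43 ± 0.50 and an adjusted p of 0.0345. Egr1, a zinc finger factor, had 286 CPM at P3, 143 and 143 CPM at P12, 32.5 CPM at P21 and 95.2, 94.4 and 57.7 CPM in adults, with a log2 fold change of -2.14 ± 0.35 and an adjusted p of 0.00435. Btg2, an antiproliferative protein, had 426 CPM at P3, 312 and 479.6 CPM at P12, 124 CPM at P21 and 313, 221 and 277 CPM in adults, with a log2 fold change of -1.67 ± 0.33 and an adjusted p of 0.0241. P21 was again the lowest library at both.
Without P12 replicate 1 and without P12 replicate 2 the adjusted p was 0.21 and 0.121 for Fos, 0.0571 and 0.0462 for Egr1 and 0.0335 and 0.217 for Btg2. Fosb, Ier2 and Dusp1, chosen after their values were seen, just missed the threshold. Fosb had 2.89 CPM in P21 against 12.01 and 38.9 CPM in P12 with an adjusted p of 0.0563, Ier2 had 23.7 CPM in P21 against 118 and 72.9 CPM in P12 with 0.0579, and Dusp1, a phosphatase of MAP kinases, had 24.6 CPM in P21 against 74.99 and 87.9 CPM in P12 with 0.0619. Hspa1a and Dnajb1, heat shock genes of the same list, were at least 2-fold higher at P21 without passing the test. Hspa1a had 20.6 CPM in P21 against 7.32 and 4.998 CPM in P12, with an adjusted p of 0.0953. Time from dissociation to lysis is not given in the labels, and its part in these values was not tested.
The promoters of Fos and Btg2 are shown because both genes fell and their windows carry the cAMP response element or its core, in capitals. They come from RefSeq's GRCm38.p6 annotation, Fos at chr12:85473640-85473939 on the plus strand with the core TGACG, and Btg2 at chr1:134079106-134079405 on the minus strand with the full element TGACGTCA, which contains the core.
Fos: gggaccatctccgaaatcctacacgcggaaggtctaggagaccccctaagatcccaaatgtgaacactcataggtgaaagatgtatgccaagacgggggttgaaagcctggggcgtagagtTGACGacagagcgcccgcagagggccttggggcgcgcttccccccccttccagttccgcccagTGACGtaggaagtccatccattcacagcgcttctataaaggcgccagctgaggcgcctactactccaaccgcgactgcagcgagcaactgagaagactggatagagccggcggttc
Btg2: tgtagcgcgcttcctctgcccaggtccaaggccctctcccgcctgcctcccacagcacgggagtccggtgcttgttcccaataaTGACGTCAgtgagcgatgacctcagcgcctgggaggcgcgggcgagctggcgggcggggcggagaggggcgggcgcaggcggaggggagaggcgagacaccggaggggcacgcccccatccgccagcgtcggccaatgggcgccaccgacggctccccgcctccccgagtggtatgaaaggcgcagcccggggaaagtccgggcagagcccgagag
Of the immediate early genes, 22 had a promoter sequence and 14 of them, 63.6%, held the core on either strand, against 20.8% of all promoters. Egr1, which fell, was not among the 14, whereas Dnajb1, which lay higher at P21, was. Among genes that fell, 6 of 10 promoters, 60%, held the core. The full element was present in 2 of the 22, Btg2 and Dusp1, and in 1.79% of all promoters. These letters describe the windows and do not show binding.

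The other genes that fell by name were of mixed function. Ptprr, a tyrosine phosphatase of MAP kinases, had 30.2 CPM at P3, 86.4 and 104 CPM at P12, 18.4 CPM at P21 and 19.4, 19.4 and 25.2 CPM in adults, so that P12 was its high age, with a log2 fold change of -2.37 ± 0.40 and an adjusted p of 0.00549, and it is 1 of the genes at which P12 stood apart. Klf10, a zinc finger repressor induced by TGF-beta, had 129.7 CPM at P3, 103 and 92.6 CPM at P12, 28.5 CPM at P21 and 34.3, 34.9 and 27.6 CPM in adults, with a log2 fold change of -1.78 ± 0.34 and an adjusted p of 0.0219. Nop58, a core protein of the particles that methylate ribosomal RNA, had 52.7 CPM in P21 against 156 and 174 CPM in P12, with a log2 fold change of -1.64 ± 0.32 and an adjusted p of 0.0219. Mrpl51, a protein of the mitochondrial ribosome, had 39.4 CPM in P21 against 133 and 99.97 CPM in P12, with a log2 fold change of -1.56 ± 0.33 and an adjusted p of 0.0424. Coq10b, a coenzyme Q binding protein of mitochondria, had 16.5 CPM in P21 against 85.2 and 89.97 CPM in P12, with a log2 fold change of -2.41 ± 0.41 and an adjusted p of 0.00585. Adults had 65.5, 82.4 and 85.3 CPM of Nop58, 99.3, 84.5 and 81.2 CPM of Mrpl51 and 50.7, 43.7 and 27.6 CPM of Coq10b, all above P21. Over all cells, Nop58 had 179 and 169 unscaled CPM in the P12 libraries and at most 154 in the 15 others. Mrpl51 had 120 and 105 unscaled CPM there and at most 100 in the 15 others. None of these 5 genes stayed called when either P12 library was left out.

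Among clock genes, Cry2 rose and Cry1 fell. Both encode cryptochromes, repressors of the circadian clock. Cry2 had 48.1 CPM at P3, 29.6 and 37.9 CPM at P12, 89.2 CPM at P21 and 109, 96.5 and 103 CPM in adults, with a log2 fold change of 1.40 ± 0.30 and an adjusted p of 0.046. Cry1 had 15.4 CPM at P3, 22.6 and 21.05 CPM at P12, 2.48 CPM at P21 and 6.21, 7.74 and 9.75 CPM in adults, with a log2 fold change of -3.13 ± 0.67 and an adjusted p of 0.0458. Both genes at P21 thus lay outside the P3 and P12 libraries, on the adult side. Neither stayed called when P12 replicate 1 or replicate 2 was left out (0.431 and 0.163 for Cry2, 0.257 and 0.181 for Cry1), and Cry1 missed the threshold at 0.0544 when each gene's highest cell was left out. Of 19 clock genes tested these were the 2 called, with a median log2 fold change of 0.01. The hour of the day at which mice were killed is not in the labels.

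Metabolic gene groups held no called gene. Of 76 tested genes of oxidative phosphorylation, 0 passed edgeR's test, with 0 higher and 8 lower at an unadjusted p under 0.05 and 3 lower by DESeq2. The list's median log2 fold change was -0.29, with 57 of 76 below 0 and 46 below both P12 libraries, 60.5% against 33.4% of all tested genes, and its summed level was 22767 CPM at P21 against 30363 and 24656 CPM at P12. Sdhc, a membrane subunit of complex II, had 46.5 CPM in P21 against 112 and 130.2 CPM in P12, with an adjusted p of 0.0579, and Ndufa4, a subunit of the respiratory chain, had 439 CPM in P21 against 1038 and 879 CPM in P12. Of 32 genes of fatty acid oxidation and ketone bodies, 0 passed, with 0 higher and 4 lower unadjusted, 0 by DESeq2, and a median of -0.14. Cpt1a, which brings long-chain fatty acids into mitochondria, had 35.6 CPM at P3, 26.4 and 20.5 CPM at P12 and 14.6 CPM at P21, and a log2 fold change of -0.68 ± 0.46 with an adjusted p of 0.667. Txnip, a thioredoxin-binding protein induced by glucose, had 194 CPM in P21 against 231 and 304 CPM in P12, with a log2 fold change of -0.46 ± 0.31 and an adjusted p of 0.666.

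Cholesterol synthesis and ribosomal protein genes lay on the higher side at P21 relative to P12. Of 24 cholesterol genes, 0 passed edgeR's test, with 7 higher and 0 lower unadjusted, 0 by DESeq2, 17 above 0 and a median log2 fold change of 0.45. Insig1, a sterol-dependent regulator of the pathway, had 84.9 CPM in P21 against 43.9 and 38.4 CPM in P12. Of 81 cytosolic ribosomal protein genes, 1 rose (Rps14) and 0 fell, while 75 were above 0 and 69 above both P12 libraries, 85.2% against 36.9% of all tested genes, with a median of 0.37; DESeq2 called 7. Their summed level was 62752 CPM at P21 against 50814 and 43236 CPM at P12. It was 62675 CPM at P3 and 69473, 56792 and 57652 CPM in adults, so both P12 libraries lay below every other untreated library. Over all cells, the ribosomal genes Rps3a1 and Rpl10 were also lower in both P12 libraries than in the 15 others. Rps14 had 1172 CPM in P21 against 413 and 364 CPM in P12, with a log2 fold change of 1.59 ± 0.26 and an adjusted p of 0.0043, but belongs to the genes at which P12 stood apart in all cells, with 490.2 and 387 unscaled CPM in the P12 libraries and at least 957 in the 15 others. Without P12 replicate 1 and without P12 replicate 2 its adjusted p was 0.0486 and 0.0934.

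**Figure D3:**
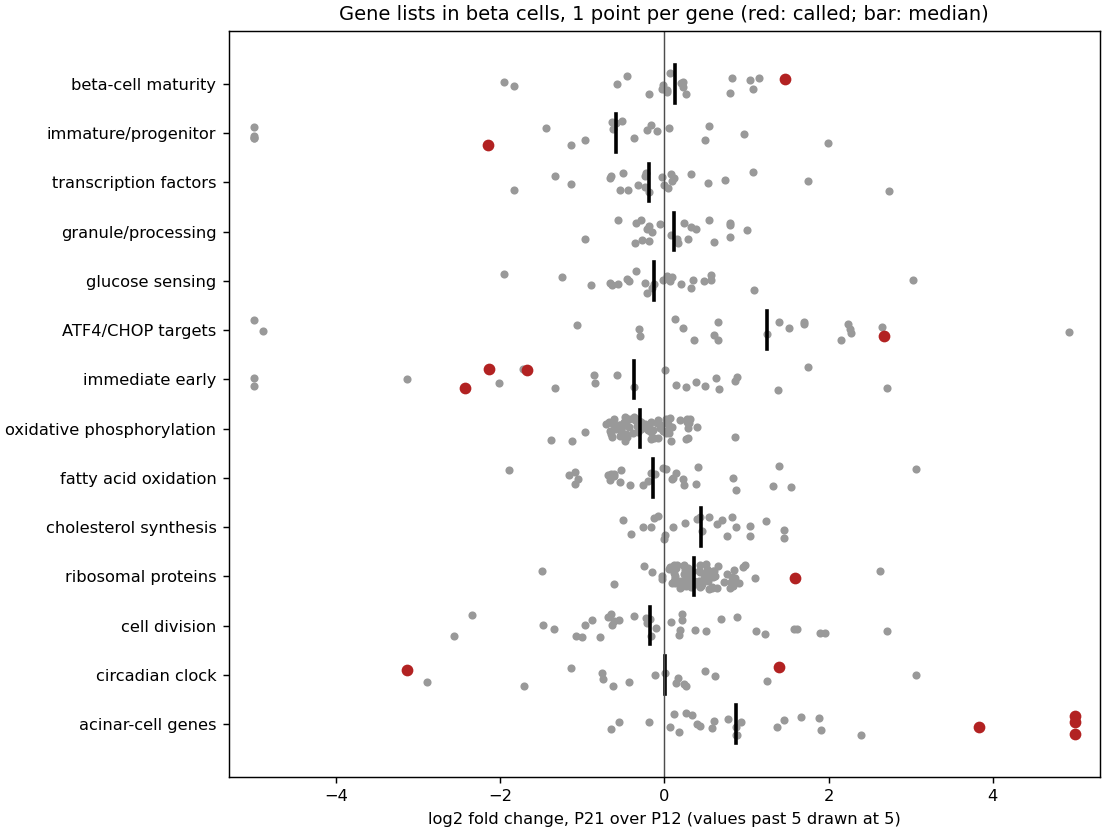
Log2 fold changes of P21 over P12 for the tested members of 14 gene lists, 1 point per gene, with called genes in red and a bar at each list's median; values past 5 are drawn at 5. Medians run from -0.59 for immature and progenitor genes to 1.26 for targets of ATF4 and CHOP, and most members of every list are uncalled.

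Cell division genes did not separate P21 from P12. Of 36 tested, 0 passed edgeR's test, with 5 higher and 1 lower unadjusted, 0 by DESeq2, and a median log2 fold change of -0.17. Mki67, a marker of cycling cells, had 34.3 CPM at P3, 4.69 and 42.4 CPM at P12, 30.6 CPM at P21 and 13.4, 4.62 and 0 CPM in adults. A single cell held 60.4% of its UMIs at P21 and 52.2% in P12 replicate 2, so these levels reflect few cells. With the 6 most widely detected genes of the list set aside after the data had been seen, 6 of 86 thinned beta cells at P21 had at least 10 UMIs over the list, 6.98% (exact Clopper-Pearson 95% interval 2.60% to 14.6%). At P12 these were 0 of 58 cells (interval up to 6.16%) and 3 of 59 cells, 5.08% (interval 1.06% to 14.1%). At P3 they were 34 of 112 cells, 30.4%, and in adults 4 of 186, 3 of 120 and 0 of 19. The intervals cover counting error only, and PCR copies were collapsed by UMI in the authors' counts.

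Rgs2, Ly6e and Fos differed across the bulk of the beta cells and not in a few of them. Fos was detected in 48.8% of thinned P21 cells, with a median of 0 UMIs, against 91.4% and 91.5% of P12 cells, with medians of 8.5 and 11. The median Ucn3 of thinned cells was 26 UMIs at P21 and 23 and 18 at P12, and 40 of 64 cells passing the rule for Gcg at P21 also had a Ucn3 UMI.
Some calls rested on single cells. At P21, 1 cell held 5385 of 6003 UMIs of Ghrl, the hormone of epsilon cells, 318 of 328 of Serpina1a and 202 of 207 of Serpina1b, near-identical antitrypsin copies, and 109 of 229 of Gc, the vitamin D binding protein. The same cell held 1898 of 3085 UMIs of Rbp4, a retinol carrier that was not called. Another cell held 137 of 143 UMIs of Pdyn, prodynorphin. The P12 libraries held 1 UMI each of Serpina1a and 0 of Serpina1b and Pdyn. Without each gene's highest cell the adjusted p was 0.548 for Serpina1a, 0.661 for Serpina1b and 0.504 for Pdyn, and these 3 genes are therefore not read as changes of beta cells as a whole. Ghrl had 826 CPM in P21 against 0 and 2.89 CPM in P12, and 85.8 CPM at P21 without its highest cell.

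**Figure D4:**
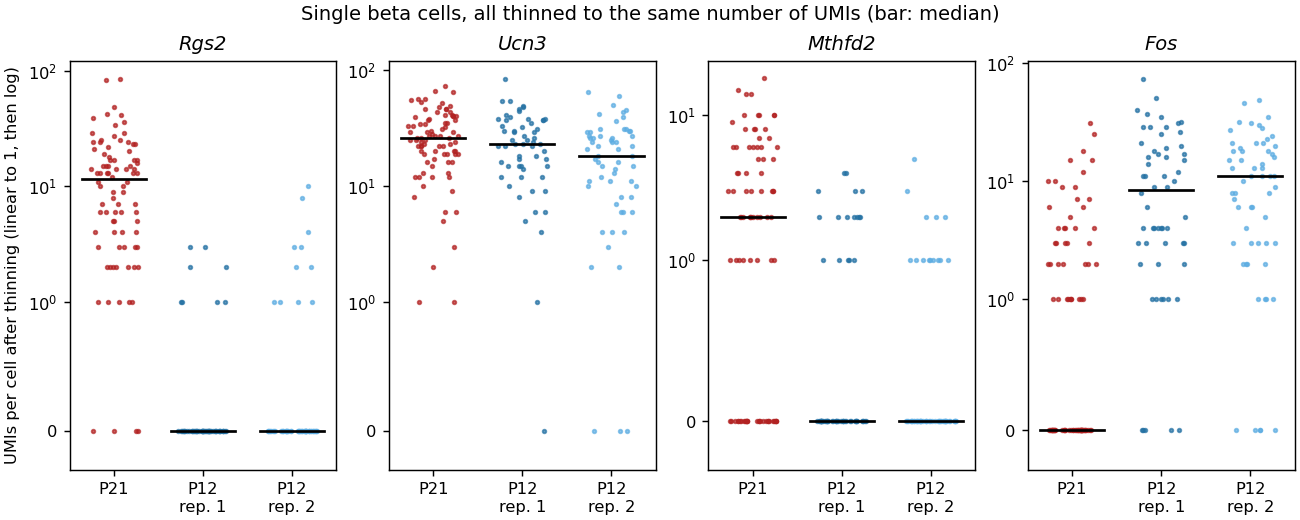
UMIs per beta cell after thinning to 30317 UMIs for Rgs2, Ucn3, Mthfd2 and Fos, 1 point per cell, with P21 left of the 2 P12 libraries and a bar at each median. Rgs2 has a median of 11.5 UMIs at P21 and 0 in both P12 libraries, and Fos a median of 0 at P21 and of 8.5 and 11 at P12.

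Transcripts of other islet hormones were more abundant in P21 than in P12 beta cells, although Gcg, Sst and Ppy chose the cells and are given as a description. Gcg had 7124 CPM in P21 against 289 and 369 CPM in P12, with a thinned median of 215 UMIs per cell at P21 and 7 and 10 at P12. It had 2238 CPM at P3 and 1196, 1215 and 5790 CPM in adults, and is 1 of the genes at which P12 stood apart. Sst had 1643 CPM in P21 against 222 and 157 CPM in P12, with medians of 45 at P21 and 5 and 3 at P12. Ppy had 2229 CPM in P21 against 1289.8 and 1790.5 CPM in P12, with a log2 fold change of 0.53 ± 0.47, and was not called. At P3 Sst had 1167 CPM and Ppy 3157 CPM. Adults had 235, 232 and 240 CPM of Sst and 494, 804 and 1852 CPM of Ppy. The P21 library also held more cells passing the rule for Gcg (64 of 243, against 5 of 78 and 5 of 74 at P12), and the part of free RNA or mixed cells in these values was not tested. Of the 14 tested alpha-cell genes besides Gcg, 2 rose, Ttr and Gc, 0 fell and 11 were above 0, with a median log2 fold change of 0.37. Ttr, transthyretin, which beta cells also express, had 2511 CPM in P21 against 1069.8 and 896 CPM in P12, with a log2 fold change of 1.35 ± 0.27 and an adjusted p of 0.0241, and Gc, a gene of alpha cells, had 31.5 CPM in P21 against 2.05 and 5.52 CPM in P12, with a log2 fold change of 3.03 ± 0.52 and an adjusted p of 0.00553; the P21 cell rich in Ghrl held 47.6% of its UMIs, and without each gene's highest cell the adjusted p of Gc was 0.00830. With P12 replicate 1 or replicate 2 left out, the adjusted p was 0.0909 and 0.217 for Ttr and 0.191 and 0.0235 for Gc. At P3 Ttr had 1825 CPM and Gc 17.7 CPM. Adults had 3520.5, 3121.5 and 4543 CPM of Ttr and 79.8, 67.2 and 152.7 CPM of Gc, all above P21. Irx2, an alpha-cell transcription factor, was near 0, with 2.48 CPM in P21 against 1.17 and 1.58 CPM in P12. Under a stricter cell rule, with a hormone ratio of 10 and Prss2 under 150, 67 beta cells at P21 and 59 and 60 at P12 remained. The adult controls in that fit kept 112, 9 and 1 beta cells, so its spread rests partly on sums of very few cells. In that fit 43 genes rose and 15 fell, with 24 and 8 of the calls above among them.

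Some pancreatic exocrine genes also rose in P21 beta cells. Of 26 tested acinar genes besides Prss2, 4 rose (Reg2, Reg3b, Pnlip and Try4), 0 fell and 23 were above 0, with a median log2 fold change of 0.82 and a summed level of 6783 CPM at P21 against 2096 and 5526 CPM at P12. Prss2, which chose the cells, had 479.6 CPM in P21 against 153 and 368 CPM in P12. In P12 replicate 2, 1 cell held 88.0% of the Prss2, 78.7% of the Try4 and 95.3% of the Prss1 UMIs, and without it these levels were 45.7, 5.17 and 1.91 CPM. Reg2, Pnlip, Gp2 and Try4 are among the genes at which P12 stood apart. Reg2, a secreted lectin of islets and acini, had 182 CPM at P21 and 0 UMIs in both P12 libraries, at least 472-fold higher, with 25.4 CPM at P3 and 272, 890.1 and 1624 CPM in adults. Reg3b had 67.2 CPM against 0 UMIs, at least 174-fold higher, and Reg3a had 52.02 CPM against 1 UMI over both P12 libraries, a ratio of 405 with a counting interval from 72.3 to 16056. Pnlip, the pancreatic lipase, had 242 CPM in P21 against 7.03 and 0.263 CPM in P12, where 1 cell held 95.8% of P12 replicate 1's UMIs, and Try4, a trypsinogen with near-identical copies, had 386 CPM in P21 against 30.8 and 23.4 CPM in P12, with a log2 fold change of 3.83 ± 0.40 and an adjusted p of 3.61e-05. Pla2g1b, a secreted phospholipase, had 38.9 CPM in P21 against 0.879 and 0.789 CPM in P12, and Gp2, a zymogen granule protein, had 21.5 CPM in P21 against 0.879 and 0 CPM in P12, a ratio of 55.8 with a counting interval from 18.7 to 273. With P12 replicate 1 or replicate 2 left out, Reg2, Reg3b, Pnlip, Pla2g1b and Try4 stayed called, whereas Reg3a (0.101 and 0.116) and Gp2 (0.257 and 0.348) did not. In thinned P21 beta cells 88.4% held a Reg2 UMI and 87.2% a Pnlip UMI.
The same genes differed in cells rich in Prss2, a description of 1 library per age. In the 4 cells with Prss2 of at least 1500 at P21 and the 4 in P12 replicate 1, Reg2 had 13829 CPM at P21 against 30.7 CPM, Reg3b 6007 against 5.76, and Pnlip 12688 against 194, each as unscaled CPM of those cells. Prss1, another trypsinogen, ran the other way there, with 328 CPM at P21 against 8923 CPM, and in beta cells it had 365 CPM at P3, 16.7 and 39.5 CPM at P12 and 31.9 CPM at P21. Ctrb1, a chymotrypsinogen, had 26144 CPM at P21 and 36849 CPM at P12 in those cells. The cells at P21 also held 7765 CPM of Gcg and 12649 CPM of Sst, against 194 and 205 CPM at P12, so they were not acinar alone. The beta-cell sums and the Prss2-rich cells thus differed in the same direction at Reg2, Reg3b and Pnlip, and the part of free RNA was not tested.

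**Figure D5:**
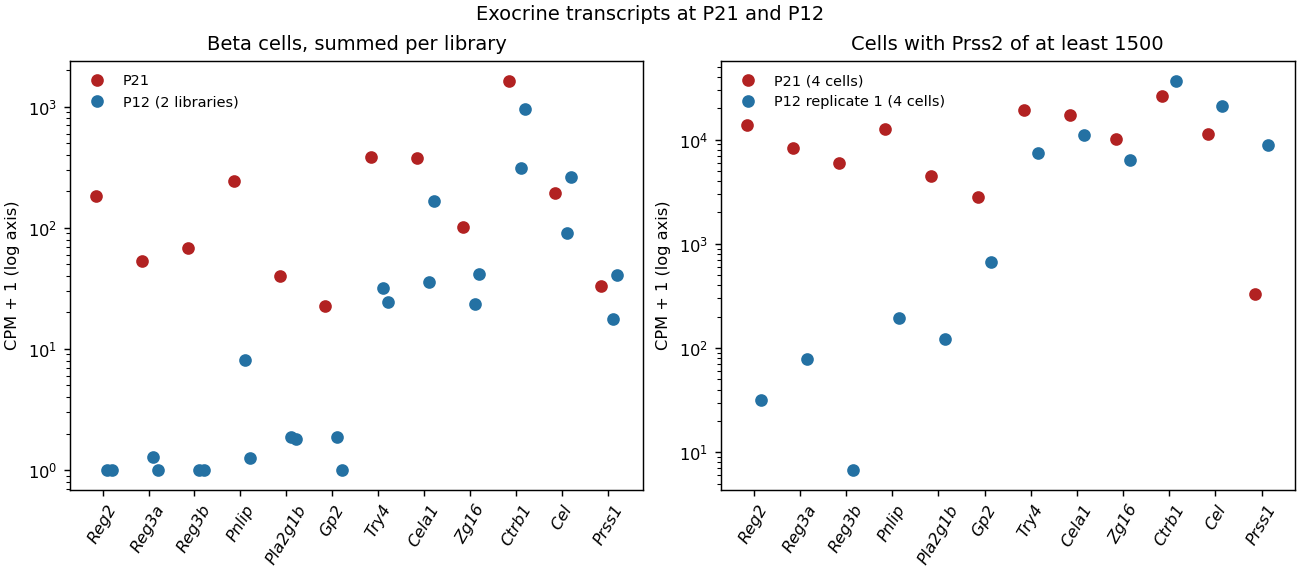
Exocrine genes as CPM + 1 on log axes, in the beta-cell sums of P21 and both P12 libraries (left) and in the cells with Prss2 of at least 1500 in P21 and P12 replicate 1 (right). Reg2, Reg3b and Pnlip are higher at P21 in both panels, whereas Prss1 in the right panel is higher at P12.

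Genes of other cell types left smaller traces. Of 12 tested immune and blood-cell genes, C1qa rose and Hbb-bs fell. C1qa, a complement subunit of macrophages, had 97.7 CPM in P21 against 26.4 and 14.995 CPM in P12. It had 70.4 CPM at P3 and 108, 71.6 and 76.3 CPM in adults, and is 1 of the genes at which P12 stood apart. Other macrophage genes were near 0 at P21, with 1.38 CPM of C1qb, 0.413 CPM of Tyrobp and 0.138 CPM of Lyz2. Hbb-bs, a beta-globin of red blood cells, had 0.461 CPM at P3, 14.9 and 24.99 CPM at P12 and 0 CPM at P21. Without P12 replicate 1 and without P12 replicate 2 the adjusted p was 0.0187 and 0.118 for C1qa and 0.123 and 0.273 for Hbb-bs. Among 15 ductal genes, 0 passed edgeR's test, with 2 higher and 1 lower unadjusted and 1 higher by DESeq2, and among 11 endothelial and stromal genes, 0 passed, with 1 higher and 0 lower unadjusted and 0 by DESeq2.

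Against the adult controls, P21 beta cells differed at few genes. In the same fit, 10 genes (0.0708%) were higher and 5 (0.0354%) lower at P21 than in the 3 adult libraries, with 763 at an unadjusted p under 0.05. This comparison shares the P21 library with the one against P12. Of the 10 higher genes, Ghrl, Serpina1a, Serpina1b and Rbp4 had most of their P21 UMIs in 1 cell, and Sst chose the cells. The others were Lars2, Lbp, Atp11a, Gm5771 and the trypsinogen Prss1. DESeq2 called 12 higher and 21 lower, and leaving out 1 library at a time gave 11 to 30 higher and 4 to 51 lower, the most without adult control 1. Atp11a, a phospholipid flippase, had 304 CPM at P21 against 76.9, 112 and 96.6 CPM in adults, a log2 fold change of 1.68 with an adjusted p of 0.0039, and 273 and 284 CPM at P12. Among the genes lower at P21, Sdhc had 46.5 CPM at P21 against 159, 166 and 204 CPM in adults, with a log2 fold change of -1.91 and an adjusted p of 0.0085. Dapl1 had 44.9 CPM at P21 against 165, 193 and 274 CPM in adults, with -2.22 and an adjusted p of 0.0085. Adults were male and had been injected, whereas the pups were untreated and of a sex not given, so sex, injection and age cannot be told apart here. Atp11a, Sdhc and Dapl1 were chosen after their values were seen.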

How the data were processed

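Per the labels' protocols, sorted pancreatic cells went singly through modified STRT-seq, with 18 PCR cycles and then 4 with indexed primers. The authors deposited UMI counts of 40824 genes in 2999 cells. They also deposited a signal table, each nonzero value of which equalled the count times 100000 over the cell's total without 8 genes, within 0.01. The tools in the submitters' processing notes are UMI-tools 0.5.0, SAMtools 1.3.1, featureCounts 1.5.3 and TopHat2 2.1.0, and the genome is mm10; strand and cell filters are not given in the sources used here. The table held 0 mitochondrial genes by symbol. Doublets were not called, beyond the limit that the rule sets on other hormones and Prss2.

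Here the signal table chose beta cells and their counts were summed per library, from 1373185 UMIs in adult control 3 to 13411734 in adult control 1. The sums of 7 untreated libraries were tested with edgeR 4.0.16 under R 4.3.3 (TMM, filterByExpr, quasi-likelihood F test, not robust, 3 residual degrees of freedom, Benjamini-Hochberg adjustment over 14130 genes). P21, with 1 library, was assumed to vary like the replicated groups. The error beside a log2 fold change is its absolute value over the square root of F and restates that test. Cells were thinned to 30317 UMIs, the 10th percentile, which left out 15 cells at P21 and 4 and 6 at P12. DESeq2 1.42.0, limma 3.58.1, Python 3.11.15, NumPy 2.4.6, pandas 2.3.3 and SciPy 1.17.1 were also used, and the fits were tested on simulated data. No 2 cells had identical counts.

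The members, the 33 gene lists of 803 genes and the rules were chosen with earlier results of these data known. Genes were named by rule: the 12 with the largest change in each direction among those called and at least 2-fold past each P12 library (10 lower genes qualified; Gm, Rik and pseudogene symbols counted but not named), up to 4 called genes of each list, and 17 genes given whatever their values, some of which are not reported here. The labels do not say whether batch or replicate numbers pair libraries of different groups, and the deviations of P12 and adult replicates 1 and 2 correlated at -0.0125. Alternatives were other tools, filters, scalings, cell rules and libraries left out. Promoters came from RefSeq's GRCm38.p6 annotation, whose assembly is mm10.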

Additional observations from a re-analysis of the deposited data

How the results depend on the processing

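The counts of called genes moved by over 1.5 times under some choices and not under others. For P21 over P12, where edgeR called 48 higher and 18 lower, DESeq2 called 75 and 53, no filter on low counts gave 139 and 62, the P12 and P21 libraries alone 83 and 45, leaving out each gene's highest cell 90 and 34, and limma-trend with cells weighted equally 2 and 1. All groups with at least 10 beta cells per library gave 36 and 7, thinned cells 53 and 20, the stricter cell rule 43 and 15, and totals that leave out 8 genes 39 and 14. Leaving out 1 library at a time gave 18 to 104 higher and 6 to 42 lower, the most without adult control 3. For P21 over adult controls, 10 higher and 5 lower became 12 and 21 with DESeq2, 36 and 78 without the filter, 8 and 2 with all groups, 11 and 8 in thinned cells, 9 and 6 under the stricter cell rule, 10 and 12 without each gene's highest cell, 10 and 2 with totals that leave out 8 genes, and 2 and 0 with cells weighted equally. With 1 library left out at a time these were 11 to 30 higher and 4 to 51 lower. P12 and P21 alone give no value against adults. Under the stricter cell rule the adult controls held only 112, 9 and 1 beta cells. The cause was not tested.

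The labels do not say whether replicate numbers pair libraries of different groups, and the check of their deviations gave -0.0125. With the replicate block, P21 over P12 had 414 genes higher and 371 lower, and P21 over adult controls 79 and 95, on 1 residual degree of freedom. Among other named genes, the block made G6pc2, Npy (called by 8 of 15 alternatives), Ins1, Iapp, Ins2, Ppy and Prss2 pass the threshold, and Slc2a2 turned to -0.032 and Ldha to 0.0065 on the log2 scale.

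The 2-fold description had 62 genes higher and 16 lower at 3-fold, 63 and 54 at a floor of 50 CPM, and 324 to 484 higher and 289 to 392 lower with 1 P12 library left out, since fewer libraries have to be exceeded. The share of beta cells with at least 2 cell division UMIs was 100% at P21 and P12, as 6 genes of the list were in nearly every cell. Without them it was 61.6% at P21 and 37.9% and 59.3% at P12 in thinned cells, 72.3% at P21 and 56.5% and 72.3% at P12 unthinned, and 6.98% at P21 and 0% and 5.08% at P12 at 10 UMIs.

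Of 788 log2 fold changes of 53 named genes under the alternatives, 641 kept direction and side of the threshold, 121 lost the call, 16 gained it and 10 changed sign. Those that changed sign were small or of few UMIs. Besides the block, Ldha was 0.39 in thinned cells, 1.09 with cells weighted equally and between -1.12 and 6.58 with 1 library left out, highest without P12 replicate 2. Dlk1 lay between -0.98 and 0.27 with 1 library left out, highest without P12 replicate 2. Mki67 was -0.14 in thinned cells and between -0.45 and 2.70 with 1 library left out, lowest without P12 replicate 1. Ins2 was 0.018 under the stricter rule and 0.016 with cells weighted equally. Genes under about 3 UMIs in a library cannot be compared at this depth.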

Other observations

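Genes of hormone and nutrient receptors, of excitability and of antigen presentation lay more often above 0 than below it without passing the test. Of 24 receptor genes, 16 were above 0, with a median log2 fold change of 0.32, 0 calls by edgeR, 6 higher and 1 lower at an unadjusted p under 0.05, and 2 higher by DESeq2. P2ry1, a purinergic receptor, had 57.4 CPM in P21 against 25.5 and 16.3 CPM in P12, with a log2 fold change of 1.46 ± 0.36 and an adjusted p of 0.096. Of 29 ion channel genes, 21 were above 0, with a median of 0.33, 0 calls by edgeR, 2 higher and 0 lower unadjusted, and 0 by DESeq2. Of 27 genes of antigen presentation and the interferon response, 21 were above 0, with a median of 0.77, 0 calls by edgeR, 4 higher and 0 lower unadjusted, and 0 by DESeq2. Over all tested genes, 6976 of 14130 were above 0.

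Aldh1a3 and Cox6a2 differed without being called. Aldh1a3, an enzyme of retinoic acid synthesis known from stressed and immature beta cells, had 0.413 CPM in P21 against 41.6 and 16.05 CPM in P12, with a log2 fold change of -6.06 ± 1.44 and an adjusted p of 0.0881. Cox6a2, a muscle-type subunit of complex IV that mature mouse beta cells express, had 7.85 CPM at P3, 265 and 127 CPM at P12, 132 CPM at P21 and 342, 322 and 388 CPM in adults, with P21 inside the range of the P12 libraries. These genes and P2ry1 were chosen after their values were seen.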
